A study of Mus musculus with 18 samples.

Results

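The IgA effect on a pooled knockout library was compared between cells with and without the inositol phosphate kinase ITPK1. The comparison used all 16 libraries recovered from mice, of 18 in the series, and all 76 target genes. For each of 8 mice, the log2 abundance of a gene's sgRNAs in ITPK1-WT cells was subtracted from that in ITPK1-KO cells, which is called the gap below. The gaps of 4 IgA mice were then set against those of 4 vehicle mice. A difference of gaps above 0 means that, under IgA, the sgRNAs stood higher in ITPK1-KO relative to ITPK1-WT cells of the same mouse than under vehicle, and one below 0 the opposite. The mouse was the unit of replication.

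The cells were Ba/F3, a mouse pro-B line that depends on interleukin-3, in the form that the submitters call sensBa/F3. ITPK1-WT cells were the line itself, and ITPK1-KO cells were a pool of 6 clones with ITPK1 deletions and no lentiviral integration. Both were transduced with 252 sgRNAs, 3 against each of 76 genes, which the submitters chose for links to cell death, plus 24 non-targeting ones, and were cultured for 10 days. ITPK1-WT cells were stained with CellTrace violet and ITPK1-KO cells with CellTrace yellow, and the dye therefore cannot be told apart from the genotype. The mixture was injected into the peritoneum of hCD89-transgenic mice at 20000000 cells per mouse, and the mice were given anti-hHer2 IgA, or PBS as vehicle. Viable cells were sorted by dye 16 h later, which gave 2 libraries per mouse. The arm of each mouse was read from the deposited sample legend, which names mice 1 to 4 as vehicle and mice 5 to 8 as IgA. Strain background, age and sex of the mice were not given in the sources used here. Each background was 1 transduced pool shared by all mice, and p-values here reflect how mice vary within that pair of pools. Those of edgeR take that variation largely as pooled over all genes or sgRNAs. The deletion of ITPK1 itself cannot be checked from sgRNA counts.

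hCD89 is the human Fc receptor for IgA, through which myeloid cells kill IgA-coated targets. ITPK1 and IPMK phosphorylate inositol phosphates on the way to the highly phosphorylated forms, which bind the necroptosis executioner MLKL and take part in many other processes. The library also covered the TNF receptor complex, in which RIPK1 stands between survival and death signalling, and the apoptosis, necroptosis, pyroptosis and ferroptosis pathways. In such a screen an sgRNA that gains share marks cells that lasted or grew better than the rest of the pool, and one that loses share marks the opposite. All abundances are shares of a library, not cell numbers.

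The recovered libraries held between 317564 and 808586 reads, and the median sgRNA of a library had between 1326 and 3311 reads. Of all sgRNA counts in these libraries 4 were 0, and all 4 belonged to Ipmk sg-2 in ITPK1-KO cells. All 8 vehicle libraries came from 2000000 sorted cells, as did 2 of the 8 IgA libraries, and the lowest number sorted was 657000. The number of cells behind a library thus moved with the arm, and its part in the results was not tested.

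The sgRNAs of the 4 genes with the clearest differences, and the 1 non-targeting sgRNA that also passed, are printed here because the results below turn on them. Sequences run 5′ to 3′, and capitals mark the 12 bases nearest the PAM, which matter most for target recognition. Genome positions are not given, since no build is stated in the files.
Itpk1 sg-1: gttcgaacGGCCAAGCGATG
Itpk1 sg-2: cgaacttaTCCGAAAGATCG
Itpk1 sg-3: ggtgggcgAGTCCTACACAG
Ipmk sg-1: caaacgatAGAACTTTGGCG
Ipmk sg-2: agacgccgTAGTATTTGGGC
Ipmk sg-3: ctctacctTCTGAATACTGG
Ripk1 sg-1: cagactgaGACACAGTCGAG
Ripk1 sg-2: cctgaattTGACCTGCTCGG
Ripk1 sg-3: aatccttgAGTACTGTCCAA
Commd4 sg-1: ctagagcaCACTCACCACGT
Commd4 sg-2: gaaactcaGCACCGCGACCG
Commd4 sg-3: atcactgtCGACACTATGCT
NT-lib-sg5: agtcatccTCTATGCGCGTA

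Over the whole library, the IgA effect differed between backgrounds for 5 of 76 genes, which is 6.58% of those tested (edgeR's quasi-likelihood test on counts summed over a gene's sgRNAs, mouse as block, Benjamini-Hochberg over all genes, threshold 0.05). Itpk1, Ipmk and Ripk1 were lower in ITPK1-KO relative to ITPK1-WT cells under IgA (3.95% of genes), and Commd4 and Zbp1 were higher (2.63%). Of the sgRNAs, 10 of 252 passed the same test, or 3.97%, with 4 higher and 6 lower (1.59% and 2.38%). The median difference over all genes was 0.0080 on the log2 scale, and 5 genes differed by more than 0.1 in either direction. These were the called Itpk1, Ipmk, Ripk1 and Commd4, and Acsl4, which was not called (0.14). The called Zbp1 stood at 0.092. Scaled to the non-targeting sgRNAs in place of TMM, 1 gene was higher and 4 were lower, and 2 sgRNAs were higher and 7 lower. The median over all genes was then −0.023.

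The gaps of the arms did not overlap for 6 of the 76 genes (7.89%). These were Itpk1, Ipmk, Ripk1, Tmem57 and Bak1 with lower gaps in all IgA mice (6.58%), and Commd4 with higher gaps (1.32%). The same held for 14 of the 252 sgRNAs (5.56%), of which 8 had higher gaps (3.17%) and 6 lower gaps (2.38%).

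**Figure D1:**
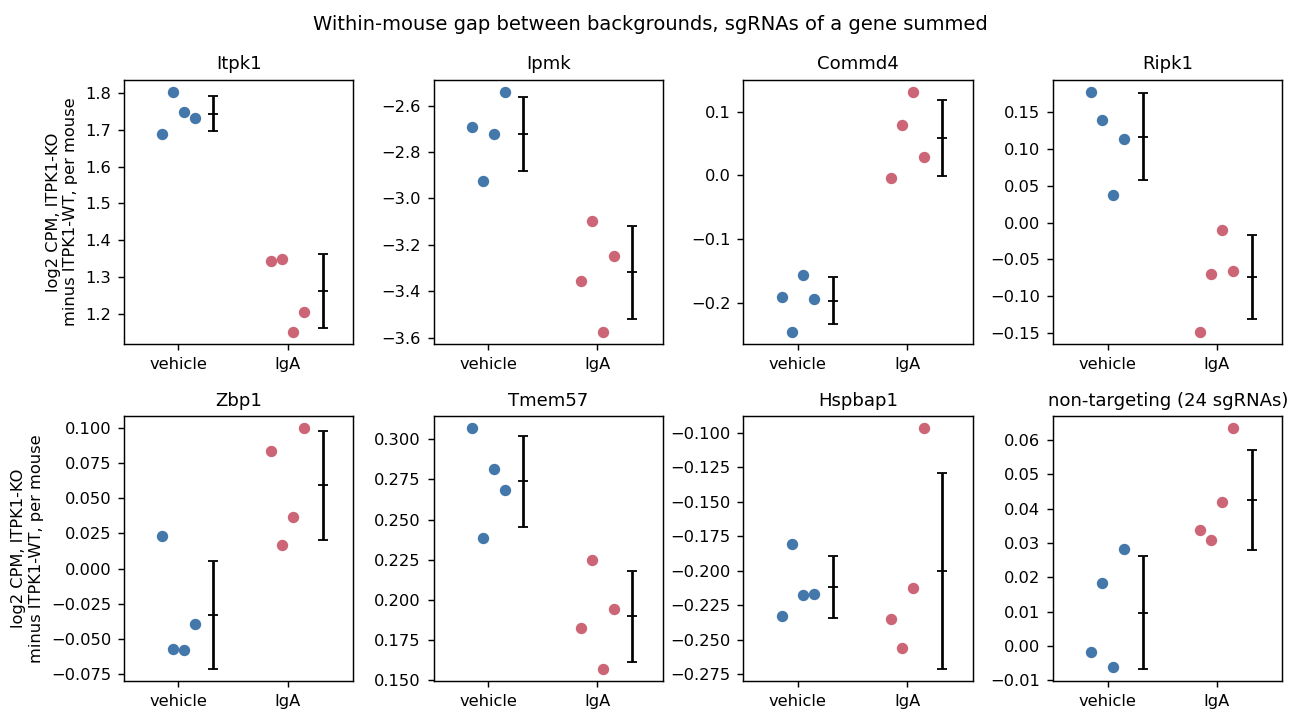
Gap between backgrounds (log2 abundance in ITPK1-KO minus ITPK1-WT cells, y axis) in each of 4 vehicle and 4 IgA mice for 7 genes and the summed non-targeting sgRNAs; points are mice and bars give mean ± SD. The arms are apart for Itpk1, Ipmk, Commd4, Ripk1 and Tmem57, and overlap for Zbp1 and Hspbap1. They are also apart, narrowly, for the summed non-targeting sgRNAs, with vehicle mice up to 0.028 and IgA mice from 0.031.

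Both inositol phosphate kinases of the library, Itpk1 and Ipmk, had a lower gap under IgA, and for both the IgA arm stood above vehicle in ITPK1-WT cells but not in ITPK1-KO cells. The ITPK1-KO clones already carry ITPK1 deletions, so there the Itpk1 sgRNAs target a gene that is already disrupted. For Itpk1 the comparison is thus between cells with and without an intact target, unlike for Ipmk. The levels of Itpk1 sgRNAs, summed over the 3, in ITPK1-WT cells were 3845, 3586, 3783 and 3707 normalised CPM (counts scaled to library size) in vehicle mice 1 to 4. In IgA mice 5 to 8 they were 4941, 4679, 5514 and 5255 CPM. All IgA libraries were therefore above all vehicle libraries. In ITPK1-KO cells the levels were 12393, 12522, 12721 and 12325 CPM in vehicle mice and 12538, 11936, 12246 and 12122 CPM in IgA mice. There the ranges overlapped.

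In the gaps, Itpk1 went from 1.74 ± 0.048 in vehicle mice to 1.26 ± 0.10 in IgA mice (SD, n = 4 each). The gaps were 1.69, 1.80, 1.75 and 1.73 in vehicle mice and 1.34, 1.35, 1.15 and 1.21 in IgA mice, so that the lowest vehicle mouse was above the highest IgA mouse. The difference was −0.48 (SE 0.055, 95% interval −0.62 to −0.35), or a ratio of 0.717, with an adjusted p of 2.70e-27 by edgeR. It was made up of an IgA effect of 0.45 (SE 0.056) in ITPK1-WT cells and −0.033 (SE 0.018) in ITPK1-KO cells. Relative to ITPK1-WT cells, Itpk1 sgRNAs were more abundant in ITPK1-KO cells of every mouse.

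The 3 Itpk1 sgRNAs all passed on their own. The difference was −0.56 for sg-1 (SE 0.094, adjusted p = 1.60e-13 by edgeR), −0.41 for sg-2 (SE 0.050, adjusted p = 5.76e-09) and −0.60 for sg-3 (SE 0.094, adjusted p = 5.76e-09). They started from unlike gaps. In vehicle mice sg-1 and sg-3 had mean gaps of 2.50 and 2.46, and sg-2 one of 0.83. In IgA mice these were 1.93, 1.85 and 0.42. The sgRNA with the small gap thus had the smallest of the 3 differences, and no difference between sgRNAs was tested.

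Ipmk encodes the inositol polyphosphate multikinase. In ITPK1-WT cells its sgRNAs stood at 3320, 3232, 3058 and 3094 CPM in vehicle mice and at 4315, 3756, 4695 and 4558 CPM in IgA mice. The groups did not overlap, and the levels were close to those of Itpk1 in the same cells. In ITPK1-KO cells Ipmk sgRNAs were scarce, with 510, 422, 460 and 529 CPM in vehicle mice and 418, 436, 390 and 477 CPM in IgA mice. These values rest on 146 to 372 reads per library and overlap between arms.

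The Ipmk gap went from −2.72 ± 0.16 to −3.32 ± 0.20 (SD, n = 4 each), with −2.69, −2.93, −2.72 and −2.54 in vehicle mice and −3.36, −3.10, −3.58 and −3.25 in IgA mice. All IgA mice lay below all vehicle mice. The difference was −0.60 (SE 0.13, 95% interval −0.91 to −0.28), a ratio of 0.661, with an adjusted p of 2.47e-07 by edgeR. The IgA effect was 0.44 (SE 0.076) in ITPK1-WT cells and −0.15 (SE 0.095) in ITPK1-KO cells. By limma on values per mouse averaged over sgRNAs, the adjusted p was 0.102, and Ipmk did not pass.

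Of the Ipmk sgRNAs only sg-1 passed, at −0.52 (SE 0.16, adjusted p = 0.000130 by edgeR). For sg-3 the difference was −0.54 (SE 0.23, adjusted p = 0.137) and for sg-2 it was −0.64 (SE 0.51, adjusted p = 0.781). In ITPK1-KO cells sg-2 had 0, 3, 0 and 4 reads in vehicle mice and 3, 3, 0 and 0 in IgA mice. At that depth no difference could be seen for it. The Ipmk result therefore rests on sg-1 and sg-3, and mainly on the levels in ITPK1-WT cells.

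**Figure D2:**
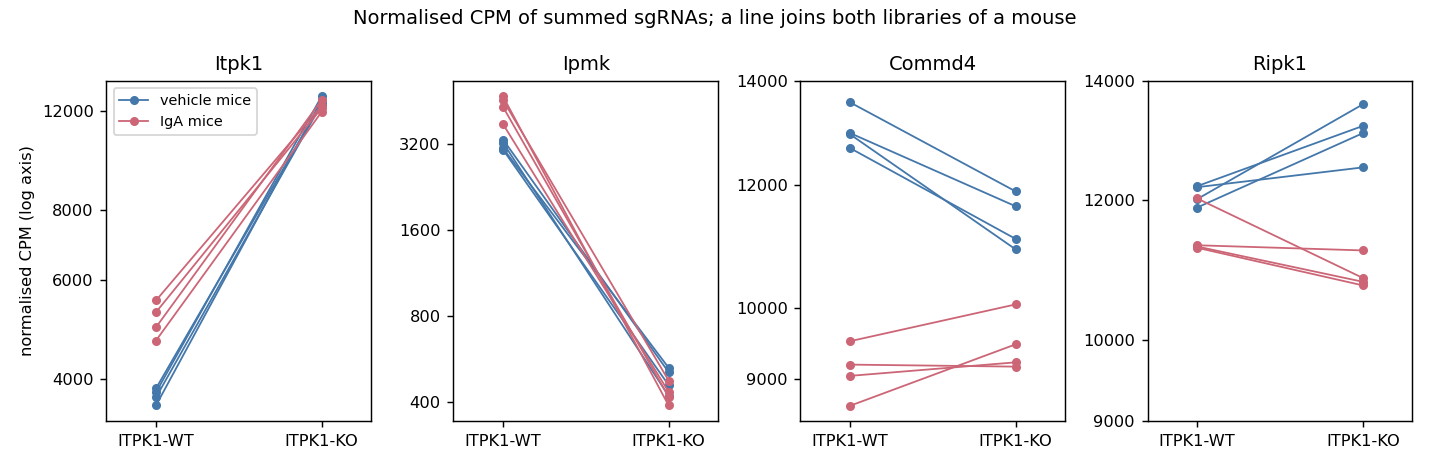
Normalised CPM summed over the 3 sgRNAs of Itpk1, Ipmk, Commd4 and Ripk1 (y axis, log scale) in both libraries of each mouse, with a line joining the libraries of 1 mouse. Itpk1 and Ipmk separate the arms in ITPK1-WT cells, Ripk1 does so in ITPK1-KO cells, and Commd4 in both.

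Among the TNF receptor complex and its ubiquitin editors, 1 of 6 genes passed, against 5 of 76 (6.58%) in all, so the count is no result about the list. This was Ripk1, which encodes the kinase and scaffold that passes TNF receptor signals to survival or death. The list's median difference was 0.0083, against 0.0080 over all genes. In ITPK1-KO cells Ripk1 sgRNAs stood at 13582, 13082, 12513 and 13206 CPM in vehicle mice and at 10838, 10734, 11233 and 10784 CPM in IgA mice. The arms were well apart there. In ITPK1-WT cells the levels were 12008, 11877, 12196 and 12212 CPM in vehicle mice and 12018, 11271, 11309 and 11290 CPM in IgA mice, with mouse 5 inside the vehicle range.

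The Ripk1 gap was 0.18, 0.14, 0.037 and 0.11 in vehicle mice and −0.15, −0.070, −0.0097 and −0.066 in IgA mice. It was above 0 in every vehicle mouse and below 0 in every IgA mouse. The means were 0.12 ± 0.059 and −0.074 ± 0.057 (SD, n = 4 each), and the difference was −0.19 (SE 0.041, 95% interval −0.29 to −0.090, adjusted p = 2.48e-09 by edgeR). The IgA effect was −0.26 (SE 0.029) in ITPK1-KO cells and −0.074 (SE 0.024) in ITPK1-WT cells. The summed non-targeting sgRNAs stood at −0.023 (SE 0.0075) and −0.055 (SE 0.012) in these cells. In ITPK1-WT cells the IgA effect was −0.18 for Ripk1 sg-1, −0.034 for sg-2 and −0.028 for sg-3. In ITPK1-KO cells it was −0.34, −0.25 and −0.21. By sgRNA the difference was −0.22 for sg-2 (SE 0.065, adjusted p = 0.000338) and −0.18 for sg-3 (SE 0.039, adjusted p = 0.00510). For sg-1 it was −0.15 (SE 0.076, adjusted p = 0.156), which did not pass.

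The other members of the complex that were named did not pass. Cyld, a deubiquitinase of the complex, had IgA effects of 0.13 with ITPK1 present and 0.18 without it, and a difference of 0.053 (95% interval 0.0023 to 0.10, adjusted p = 0.487 by edgeR). Spata2, which recruits CYLD, stood at −0.070 (SE 0.041, adjusted p = 0.487). The TNF receptors Tnfrsf1a and Tnfrsf1b stood at −0.0045 and 0.046 (adjusted p = 0.885 and 0.506).

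Of 4 necroptosis effectors, 1 passed, against 5 of 76 (6.58%) in all, and its difference was small. Zbp1 encodes a sensor of Z-form nucleic acids that engages RIPK3. Its gaps were 0.023, −0.057, −0.058 and −0.040 in vehicle mice and 0.084, 0.017, 0.037 and 0.10 in IgA mice. These overlap, since IgA mouse 6 was below vehicle mouse 1. The difference was 0.092 (SE 0.027, 95% interval 0.025 to 0.16, adjusted p = 0.00842 by edgeR), with IgA effects of −0.087 (SE 0.016) in the ITPK1-WT and 0.0054 (SE 0.020) in the ITPK1-KO background. The summed non-targeting sgRNAs had IgA effects of −0.055 (SE 0.012) and −0.023 (SE 0.0075) there.

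No sgRNA of Zbp1 passed alone, at 0.10, 0.11 and 0.049 for sg-1 to sg-3 (adjusted p = 0.169, 0.169 and 0.781). All 3 lay inside the range of the non-targeting sgRNAs, whose upper end of 0.16 is set by NT-lib-sg5 alone. The other 23 reach 0.095, and Zbp1 sg-1 and sg-2 lay above that. Scaled to those sgRNAs the difference was 0.059 (adjusted p = 0.156), and the gene also did not pass by DESeq2 (adjusted p = 0.0939), by limma (0.118), with the sequencing sample sheet as a term (0.0685), or without mouse 2, 3, 5 or 8 (adjusted p = 0.0827, 0.0580, 0.0540 and 0.0652). The rest of this list was near 0, with the kinase Ripk3 at −0.025, the executioner Mlkl at 0.012 and the phosphatase Pgam5 at −0.041 (adjusted p = 0.696, 0.825 and 0.588 by edgeR). The list's median was −0.0066.

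Commd4, which encodes a COMM domain subunit of an endosomal sorting complex, was the gene with the highest difference. Its sgRNAs were lower under IgA in both backgrounds, and less so in ITPK1-KO cells. In ITPK1-WT cells the levels were 13563, 12934, 12959 and 12673 CPM in vehicle mice and 9191, 9516, 8646 and 9039 CPM in IgA mice. In ITPK1-KO cells they were 11884, 10904, 11625 and 11075 CPM in vehicle mice and 9163, 10050, 9472 and 9222 CPM in IgA mice. The arms did not overlap in either background. The backgrounds differed in vehicle mice, with means of 13032 ± 377 and 11372 ± 459 CPM, and were near each other in IgA mice, with 9098 ± 361 and 9477 ± 405 CPM (SD, n = 4 each).

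The Commd4 gap was −0.19, −0.25, −0.16 and −0.19 in vehicle mice and −0.0043, 0.079, 0.13 and 0.029 in IgA mice. The difference was 0.26 (SE 0.035, 95% interval 0.17 to 0.34), a ratio of 1.19, with an adjusted p of 1.78e-13 by edgeR. The IgA effect was −0.52 (SE 0.035) in the ITPK1-WT and −0.26 (SE 0.042) in the ITPK1-KO background. All 3 sgRNAs passed, at 0.27 for sg-1 (SE 0.039, adjusted p = 0.000338), 0.17 for sg-2 (SE 0.041, adjusted p = 0.0399) and 0.33 for sg-3 (SE 0.053, adjusted p = 2.06e-07). For sg-2 the call was lost under 11 of 20 alternatives.

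**Figure D3:**
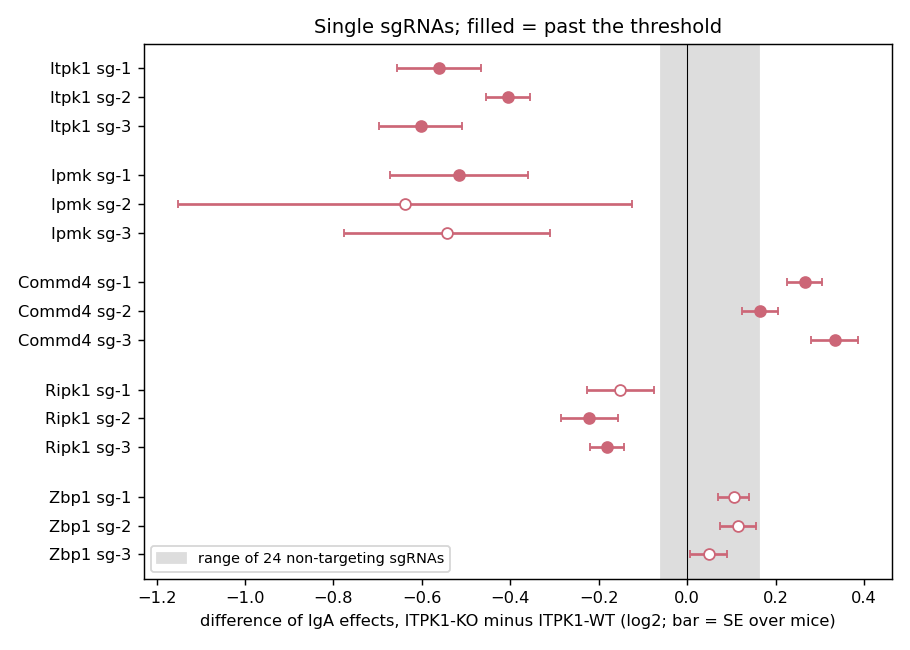
Difference of IgA effects (ITPK1-KO minus ITPK1-WT, log2, x axis) for the 15 sgRNAs of the 5 genes past the threshold, with the SE over mice as bars, filled points where the sgRNA itself passed and a grey band for the range of the 24 non-targeting sgRNAs. All 3 sgRNAs of Itpk1 and Commd4 are filled, and those of Zbp1 lie inside the band, whose upper end is set by NT-lib-sg5 alone.

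The very small p-values of edgeR lean on a spread pooled over all genes. limma, fitted on 1 value per mouse, gave adjusted p = 0.000918 for Itpk1, 0.00122 for Commd4 and 0.0229 for Ripk1. An exact two-sided permutation test over the 70 ways to split 8 mice gave p = 0.0286 for Itpk1, Ipmk, Commd4 and Ripk1, the smallest that 4 against 4 can give, and p = 0.0571 for Zbp1. These genes were picked by the edgeR test on the same mice, and the permutation p was not adjusted. Gaps that do not overlap give the smallest p by construction, and 6 of the 76 genes had such gaps. The permutation p-values are therefore no further support.

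Sample numbers in the names of the read files fall into 2 runs of numbering, each treated as 1 sequencing sample sheet. Mice 1 to 5 are on one, and the other holds mice 6 to 8 with the uninjected cells. Within the sheet that holds both arms, IgA mouse 5 was set against the vehicle mice, on the assumption that the lone mouse varies like the others. The difference was then −0.42 for Itpk1, −0.67 for Ipmk, −0.29 for Ripk1 and 0.17 for Commd4. These 4 kept their direction, and Zbp1 stood at 0.096. With 1 IgA mouse the fit holds no spread between IgA mice, so its p-values are not given. The other sheet holds IgA mice only.

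Before injection there was 1 library of each background, without a replicate. The gaps there were 1.48 for Itpk1, −3.04 for Ipmk, −0.085 for Commd4, 0.025 for Zbp1 and 0.18 for Ripk1. For the first 4 genes that value lay between the means of the vehicle and IgA mice, and for Ripk1 it was above both. Vehicle mice are on another sheet than these libraries, so their distance from the start cannot be told apart from the sheet.

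The IgA effects of both backgrounds can also be read from the authors' deposited tables of MAGeCK log2 fold changes. The ITPK1-KO value minus the ITPK1-WT value there was −0.58, −0.50 and −0.64 for Itpk1 sg-1 to sg-3 in the authors' deposited tables. For Ipmk sg-1 and sg-3 the authors' deposited tables gave −0.54 and −0.77. For Ripk1 sg-1 to sg-3 they gave −0.19, −0.31 and −0.24, and for Commd4 sg-1 to sg-3 they gave 0.19, 0.0998 and 0.29, again from the authors' deposited tables. For Zbp1 sg-1 to sg-3 the authors' deposited tables gave 0.051, 0.036 and −0.00041, of which the last has the opposite sign to the value above. The signs for the other 4 genes were those given above, from the same counts. The FDR in the authors' deposited table for ITPK1-WT cells was 0.998 for every sgRNA. For ITPK1-KO cells the authors' deposited table gave an FDR of 0.00184, 0.00184 and 0.0481 for Ripk1 sg-1 to sg-3. Ripk1 was not alone there. The authors' deposited table gave 0.00161, 0.132 and 0.0130 for Commd4 sg-1 to sg-3. For Hspbap1 sg-1 to sg-3 it gave 4.84e-06, 0.00449 and 0.0206. Since no sgRNA passed in ITPK1-WT cells, a low FDR in ITPK1-KO cells alone does not set a gene apart.

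Hspbap1 and Cyld had IgA effects of 1 direction in both backgrounds, and no difference between them that passed. For Hspbap1, which encodes a partner of a small heat shock protein, the levels in ITPK1-WT cells were 13296, 12709, 13069 and 12865 CPM in vehicle mice and 15496, 14996, 15240 and 14781 CPM in IgA mice. In ITPK1-KO cells they were 11315, 11216, 11240 and 11067 CPM in vehicle mice and 13166, 12557, 13154 and 13822 CPM in IgA mice. The arms were apart in both. The effects were 0.22 (SE 0.020) and 0.23 (SE 0.029), and their difference was 0.012 (95% interval −0.079 to 0.10, adjusted p = 0.850 by edgeR). The interval leaves room for a difference of 0.10.

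Tmem57, which encodes macoilin, had gaps that did not overlap, and a difference of −0.084 (SE 0.020, 95% interval −0.13 to −0.035) that did not pass (adjusted p = 0.107 by edgeR). It passed when scaled to the non-targeting sgRNAs (−0.11, adjusted p = 0.0149) and without mouse 6 (adjusted p = 0.0212). Acsl4, an acyl-CoA synthetase of ferroptosis, stood at 0.14 (SE 0.046, 95% interval 0.027 to 0.25, adjusted p = 0.116). It passed without mouse 5 (0.18, adjusted p = 0.0231), and within the sheet that holds both arms it stood at 0.0024. Both remained uncalled in the test used throughout.

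**Figure D4:**
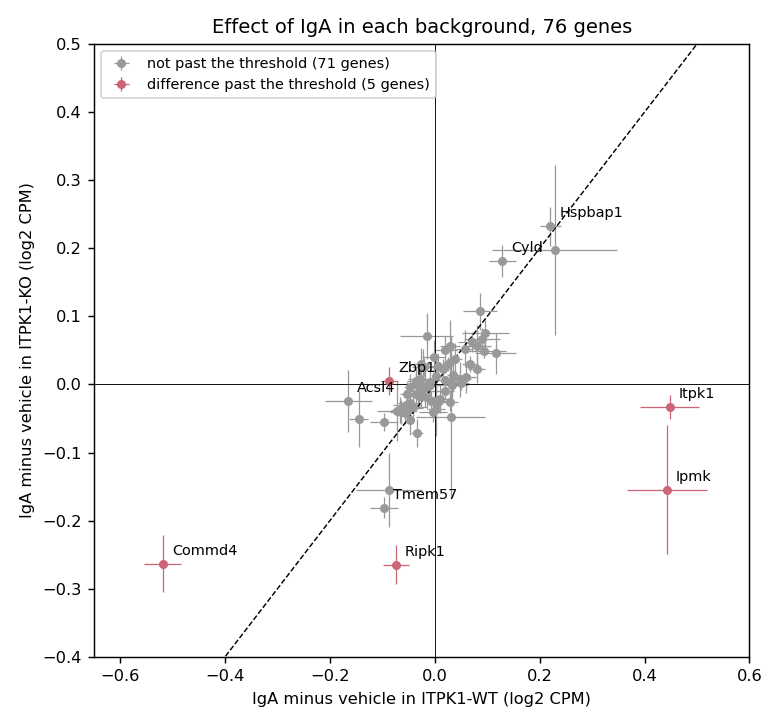
IgA effect (log2, IgA minus vehicle mice) in ITPK1-WT cells (x axis) against that in ITPK1-KO cells (y axis) for 76 genes, with SE bars and a dashed line of equal effects. Itpk1 and Ipmk lie to the right of most genes and below the line, Commd4 lies above it, Ripk1 below it, and Hspbap1 near it.

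The remaining lists held no gene past the threshold. Death receptors with their adaptor and initiator caspase (6 genes) had a median difference of 0.027. In that list the adaptor Fadd stood at 0.095 (SE 0.036, adjusted p = 0.140 by edgeR), the death domain-associated protein Daxx at 0.087 (SE 0.031, adjusted p = 0.349), the initiator Casp8 at 0.023 (adjusted p = 0.701) and the receptor Fas at −0.025 (adjusted p = 0.660). The TNF family receptors without a death domain (4 genes) had a median of 0.031. They include the lymphotoxin receptor Ltbr at −0.024 and Cd27 at 0.040 (adjusted p = 0.780 and 0.588).

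In the mitochondrial pathway, 6 BH3-only inducers had a median of 0.026, with Bbc3 at −0.057 and Bid at 0.028 (adjusted p = 0.434 and 0.660 by edgeR). The pore formers Bax and Bak1 stood at 0.0090 and −0.054. The Bak1 gaps of the arms did not overlap, but the gene did not pass (95% interval −0.090 to −0.019, adjusted p = 0.428). None of the 7 genes of the apoptosome, caspase and IAP list passed. The scaffold APAF1 stood at −0.038, the initiator Casp9 at −0.047 and CASP2 at 0.042 (adjusted p = 0.538, 0.487 and 0.487). Within the sheet of both arms, where mouse 5 is the only IgA mouse, Casp9 stood at −0.12. Another member, Diablo, an antagonist of IAPs picked out after its values were seen, stood at −0.13 there.

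The 4 inflammatory caspases and gasdermins had a median of −0.018, with the pore former Gsdmd at −0.050 (adjusted p = 0.418 by edgeR). The 3 lipid enzymes of ferroptosis had one of 0.014, with the lipoxygenase Alox15 at 0.014 (adjusted p = 0.804). The 3 interferon receptors had a median of −0.022. The 3 growth genes had one of −0.069, with the signalling adaptor Grb2 at −0.031, the splicing factor Txnl4b at −0.078 and the translation factor Eif5b at −0.069 (adjusted p = 0.885, 0.798 and 0.701). These genes had few reads, and the 95% interval of Txnl4b ran from −0.43 to 0.28. The Txnl4b sgRNAs went opposite ways, with sg-1 at −0.071, sg-2 at −0.78 and sg-3 at 0.57, and none passed. Of the 27 genes on no list, Commd4 was the only one past the threshold, and their median was 0.011.

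**Figure D5:**
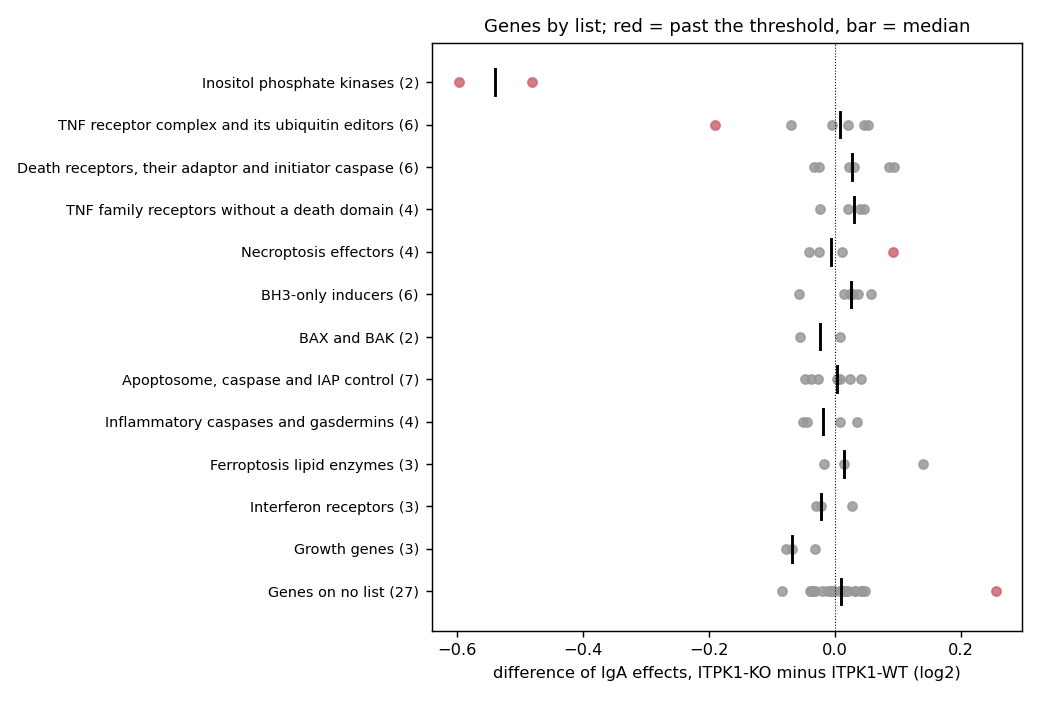
Difference of IgA effects (log2) for each gene, by gene list, with red points for genes past the threshold and a bar for the median of the list. The list medians lie near 0 except that of the 2 inositol phosphate kinases, at −0.54.

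The inositol phosphate kinases were the 1 list with all its measured members past the threshold, 2 of 2, with a median of −0.54. The list is that short because the library targets no other member. Its members were chosen with these results known, so the count is no independent evidence. For Itpk1 the target is already deleted in ITPK1-KO cells, so its call is not of the same kind as that of Ipmk.

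Non-targeting sgRNAs give the background of the comparison. Their differences ran from −0.058 to 0.16 with a median of 0.024, and 19 of 24 were above 0. One of them passed, NT-lib-sg5, at 0.16 (SE 0.056, adjusted p = 0.0180 by edgeR), which is 4.17% of the non-targeting sgRNAs, against 3.95% of the targeting ones. That call was lost under 9 of 20 alternatives. Its gaps were −0.067, 0.056, 0.016 and −0.0069 in vehicle mice and 0.099, 0.058, 0.26 and 0.23 in IgA mice. A difference of 0.16 in a single sgRNA was thus reached by a control. Of the 228 targeting sgRNAs, 62 lay outside the non-targeting range, 7 above and 55 below. NT-lib-sg5 sets the upper end of that range. Against the other 23 non-targeting sgRNAs, which reach 0.095, 18 lay above and 55 below, a count added after the data were seen.

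The share of all non-targeting reads also had a larger gap under IgA. It was 0.0054, 0.020, 0.0037 and 0.030 in vehicle mice and 0.032, 0.032, 0.047 and 0.066 in IgA mice. The arms did not overlap. The difference was 0.030 (exact two-sided permutation p = 0.0286, the smallest possible here, adjusted p = 0.0857 over 3 such comparisons). A lone result at the smallest p cannot pass after that adjustment, so the adjusted p decides nothing here. The called genes stood at −0.48 for Itpk1, −0.60 for Ipmk, −0.19 for Ripk1, 0.26 for Commd4 and 0.092 for Zbp1. The part of this offset in those differences was not tested.

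The other measures taken as 1 value per mouse did not pass. The SD of the gap over targeting sgRNAs was 0.522 ± 0.0166 in vehicle and 0.552 ± 0.0314 in IgA mice (SD, n = 4 each, exact permutation p = 0.143, adjusted p = 0.143). The number of sorted ITPK1-KO over ITPK1-WT cells, as log2, was 0 in all vehicle mice and 0.48, 0, 0.58 and 0.54 in IgA mice 5 to 8 (exact permutation p = 0.143, adjusted p = 0.143). The number sorted was 2000000 for both backgrounds in every vehicle mouse and in IgA mouse 6, which was also the highest number of any library. If sorting stopped at that number, a ratio of 0 was set by the sort. The test then cannot tell whether the arms differ in the cells present.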

How the data were processed

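The measurements are sgRNA cassettes amplified from the genomic DNA of sorted cells. The authors deposited raw counts, in reads for each sgRNA, after discarding reads with mismatches to the library, per the labels' design text. They scored them with MAGeCK 0.5.6, per the submitters' processing notes. The authors also deposited log2 fold changes and FDR values (adjusted p-values) of IgA against vehicle for each background, used only where named, and the cells sorted (another unit, per the file headers). Of the columns there, 4 with joined values per sample were not used. The sources used here name no aligner.

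The fit was made with edgeR 4.0.16 (glmQLFit, glmQLFTest) in R 4.3.3, with TMM scaling, a minimum mean of 10 reads, mouse as block and the background by arm term, per sgRNA and on counts summed over the 3 sgRNAs of a gene. The non-targeting sgRNAs were 1 further feature, not counted among the 76 genes. p-values were adjusted by Benjamini-Hochberg, with a threshold of 0.05. Gaps, means, SEs and 95% intervals come from values per mouse of normalised log2 CPM (prior count 2). The intervals use each gene's own spread over mice and are not adjusted for the number of genes. An interval can therefore exclude 0 where the adjusted p of edgeR does not pass. Alternatives were limma 3.58.1, DESeq2 1.42.0, other scalings, count filters, the sample sheet, no block and each mouse left out. The procedure was tested on simulated counts of single sgRNAs, with the same spread for all of them and no mouse effect. Calls on counts summed over a gene were not covered by that test. Reads carry no molecular identifiers, so counting error is only a lower limit of the error.

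Both libraries of a mouse come from the same animal, so mouse numbers pair them. For the 238 sgRNAs averaging 500 reads or more, the deviations of both libraries of a mouse from their group means correlated at −0.084 to 0.26. Pairs of libraries within a group had a chi-square per degree of freedom of 2.24 to 5.62, so none was a duplicate.

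Named were genes past the threshold (at most 15), the 5 highest and 5 lowest of those with 3 concordant sgRNAs, up to 12 called sgRNAs and a set list centred on death genes. Members and lists were chosen with earlier results of these data known. Symbols are those of the files, and all 76 matched RefSeq names of GRCm38.p6. For Casp11 the match fell on chromosomes 9 and 15, so it was not unique. Of the genes this rule names, 2 are left out of the text, though counts of genes and lists include them.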

Additional observations from a re-analysis of the deposited data

Results flagged for a closer look

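The difference between backgrounds passed the test for 5 genes, at −0.48 for Itpk1, 0.26 for Commd4, −0.19 for Ripk1, −0.60 for Ipmk and 0.092 for Zbp1 (log2, IgA minus vehicle mice of the gap between ITPK1-KO and ITPK1-WT). It also passed for 10 sgRNAs. For Itpk1 sg-1, sg-2 and sg-3 it was −0.56, −0.41 and −0.60. For Commd4 sg-1, sg-2 and sg-3 it was 0.27, 0.17 and 0.33. For Ipmk sg-1 it was −0.52, for Ripk1 sg-2 and sg-3 it was −0.22 and −0.18, and for the non-targeting NT-lib-sg5 it was 0.16.

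In 4 of 96 checks of the gaps within an arm, of which 3 are given here, 1 mouse lay far from the other 3; chance does so in about 1 of 20 groups. The Pgam5 gap of IgA mouse 7 was −0.20, against −0.039 to −0.013. The Tnfrsf1a gap of vehicle mouse 3 was −0.14, against −0.020 to 0.0036. For Commd4 sg-1 the gap of IgA mouse 7 was 0.15, against −0.0025 to 0.0083 in the others. Without mouse 7 Commd4 itself still passed.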

How the results depend on the processing

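Itpk1, Commd4 and Ripk1 passed under all 19 alternatives, over which their differences ran from −0.52 to −0.40, from 0.17 to 0.28 and from −0.29 to −0.17. The alternatives include the fit with 1 IgA mouse. Ipmk passed under 18 of 19 (−0.70 to −0.52), all but limma, and Zbp1 under 10 of 19 (0.059 to 0.12). limma on values per mouse called 3 genes and 5 sgRNAs, against 5 and 10. With each mouse left out in turn, 4 to 6 genes and 8 to 15 sgRNAs passed, with 15 without mouse 6. Without the mouse as a replicate block, 5 genes and 10 sgRNAs passed, and they were the same 5 genes. The gap of the non-targeting share had an unadjusted p over 0.05 with mice of 1 sample sheet alone (0.0175, exact permutation p = 0.4, where 1 mouse against 4 allows no p below 0.2), without the replicate block (0.0295, p = 0.179) or as a median over sgRNAs (0.0248, p = 0.171), and ran from 0.0224 to 0.0344 with each mouse left out. The ratio of sorted cells ran from 0.339 to 0.534 with each mouse left out, and without mouse 6 it was 0.534 (exact permutation p = 0.0286, not adjusted), with every vehicle mouse at 0. Mouse 6 was the IgA mouse at the highest number sorted for both backgrounds, and the limit set by a possible stop of the sort applies here too. The spread of the gap without the block was not run, since the gap is taken within a mouse. The cause of these changes was not tested. Depth limits Ipmk, Grb2 and Txnl4b, all with few reads in ITPK1-KO cells.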
